A study of Mus musculus with 29 samples.

Results

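Mast cells and basophils are described here in the mouse ovary through 9 of their genes, measured by bulk RNA sequencing in 29 ovary libraries of 2 genotypes at 4 ages. The genes are Tpsb2, Tpsab1, Mcpt4, Cma1, Cpa3, Prss34, Mcpt8, Ms4a2 and Fcer1a, which are 9 of the 51912 gene IDs in the count table. They were chosen by their measured levels, as genes whose RNA appears in the ovary at embryonic day 18.5 (E18.5), so their levels across ages are given as a description with no test. The contrasts of genotype, and the step from postnatal day 8 (PND8) to 12 weeks (12wk), were not used in picking them and were tested.

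Mast cells are tissue-resident blood-derived cells that depend on the receptor Kit and store histamine, heparin and proteases in granules. Mast cells of connective tissue hold tryptases, which cut after basic residues, chymases, which cut after aromatic residues, and carboxypeptidase A3, which trims peptides from their carboxyl end. Mast cells of mucosa instead make the chymases Mcpt1 and Mcpt2. Basophils are circulating relatives whose signature protease is Mcpt8. Both cell types carry the high-affinity receptor for immunoglobulin E, built from an alpha chain (Fcer1a), a beta chain (Ms4a2) and a gamma chain (Fcer1g) that other leukocytes also use. Mast cells are known residents of the ovarian stroma.

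The series asked what cell cycle control contributes to ovarian development, using mice without Cdkn1b, which encodes p27, a brake on cyclin-dependent kinases. Wild-type (Cdkn1b +/+) ovaries gave 4 libraries at each of E13.5, E18.5, PND8 and 12wk. Cdkn1b -/- ovaries, called Cdkn1b-null here, gave 3 libraries at E13.5, PND8 and 12wk (replicates 1, 3 and 4) and 4 at E18.5. No other allele, agent or treatment is named for any group, all ovaries were dissociated with papain before RNA extraction, and the labels do not say which animals were littermates, whether ovaries were pooled or how much surrounding tissue was trimmed. Nothing in the labels says that replicates came from separate animals, so p-values measure the spread between these samples only.

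Libraries held 14095601 to 48213177 counts. Cdkn1b itself had lower counts in every Cdkn1b-null library than in any wild-type library of the same age, with log2 fold changes of -2.38, -3.06, -1.06 and -1.85 from E13.5 to 12wk and adjusted p = 0.0114, 1.12e-05, 0.0216 and 0.211 (edgeR). Genes of the granulosa lineage, the supporting cells of the follicle, summed to 327 to 2270 CPM (counts per 1000000 counts, scaled over the 29 libraries) over the 29 libraries, and the germ cell list was highest at E13.5, E18.5 and PND8. At 12wk the germ cell list summed to 3.82 to 45.2 CPM in wild type and 2.82 to 3.54 CPM in Cdkn1b-null ovaries. One E13.5 wild-type library, replicate 3, stood apart with 18.9% of its counts in red cell genes.

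The promoters of several of these genes are printed first because they share a short motif. RefSeq (GRCm38.p6) gave the 250 bases before the start of 7 of the 9 genes, all but Tpsb2 and Tpsab1. The motif GATAA, the core that GATA factors bind, was searched on both strands and is in capitals below (TTATC where it lies on the other strand). It was found in 6 of the 7 promoters, all but that of Mcpt8, and in 23.0% of all 27025 promoters of the same length. Among these, the promoters of Cpa3 (chr3:20242182-20242431), Cma1 (chr14:55944676-55944925), Mcpt4 (chr14:56062311-56062560) and Ms4a2 (chr19:11623720-11623969) are on the minus strand and that of Prss34 (chr17:25298144-25298393) is on the plus strand, each printed 5′ to 3′ in the direction of its gene.
Cpa3: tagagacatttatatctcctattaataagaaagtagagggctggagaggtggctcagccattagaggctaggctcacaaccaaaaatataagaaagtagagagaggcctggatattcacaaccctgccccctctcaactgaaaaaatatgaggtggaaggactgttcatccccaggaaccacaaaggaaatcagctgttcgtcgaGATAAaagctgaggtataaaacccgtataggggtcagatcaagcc
Cma1: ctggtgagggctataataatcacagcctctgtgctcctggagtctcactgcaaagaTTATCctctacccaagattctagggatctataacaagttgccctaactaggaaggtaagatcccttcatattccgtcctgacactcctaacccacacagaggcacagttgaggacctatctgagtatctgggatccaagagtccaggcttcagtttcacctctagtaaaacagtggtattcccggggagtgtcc
Mcpt4: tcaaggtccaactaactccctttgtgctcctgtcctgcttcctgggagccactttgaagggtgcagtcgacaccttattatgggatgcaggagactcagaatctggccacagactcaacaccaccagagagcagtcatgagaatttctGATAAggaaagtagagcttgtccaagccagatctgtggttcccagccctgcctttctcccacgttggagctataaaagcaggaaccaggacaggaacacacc
Prss34: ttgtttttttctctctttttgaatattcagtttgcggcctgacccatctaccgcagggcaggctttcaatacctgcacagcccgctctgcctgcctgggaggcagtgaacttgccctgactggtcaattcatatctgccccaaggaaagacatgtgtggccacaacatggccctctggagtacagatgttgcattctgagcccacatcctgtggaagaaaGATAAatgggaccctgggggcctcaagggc
Ms4a2: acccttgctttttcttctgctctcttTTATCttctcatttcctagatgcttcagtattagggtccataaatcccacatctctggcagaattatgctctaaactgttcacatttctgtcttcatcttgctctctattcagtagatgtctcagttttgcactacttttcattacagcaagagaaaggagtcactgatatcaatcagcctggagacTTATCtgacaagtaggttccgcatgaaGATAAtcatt
The GATAA match began 45 bases before the start in Cpa3, 30 in Prss34, 102 in Mcpt4 and 194 in Cma1. Ms4a2 had 3 matches, at 224, 37 and 10 bases, and Fcer1a, not printed, had a single match at 92 bases. The motif TATAAA, searched on both strands, was in 3 of the 7 promoters (Cpa3, Mcpt4 and Fcer1a) against 13.0% of all. Read in the direction of the gene, it lay 31 bases before the start in Cpa3, 32 in Mcpt4 and 125 in Fcer1a. The motif CANNTG, the E-box that factors such as Mitf bind, was in 5 of the 7 against 66.0% of all. GATAA and TATAAA matches shared no base in these promoters. A match is a description of letters and not of binding, and no assay of binding was used here.

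Together the 9 genes took 0.160% to 0.243% of all counts in the 8 E18.5 libraries and at most 0.00785% in any other library. Their summed level in wild type was 4.83, 15.5, 21.7 and 4.72 CPM in E13.5 replicates 1 to 4, and 1706, 1477, 2095 and 1732 CPM at E18.5. It was 12.7, 25.1, 17.5 and 12.9 CPM at PND8 and 1.46, 1.41, 2.47 and 1.95 CPM at 12wk. In Cdkn1b-null ovaries the sum was 21.8, 76.0 and 18.6 CPM at E13.5, then 1601, 2083, 1554 and 2245 CPM at E18.5. It was 77.2, 26.4 and 49.8 CPM at PND8 and 3.38, 3.96 and 3.85 CPM at 12wk. All 8 libraries of E18.5 lay far above all 21 others, and the 12wk libraries were the lowest of each genotype. In bulk RNA, fewer cells of a type and less RNA per cell cannot be told apart.

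**Figure D1:**
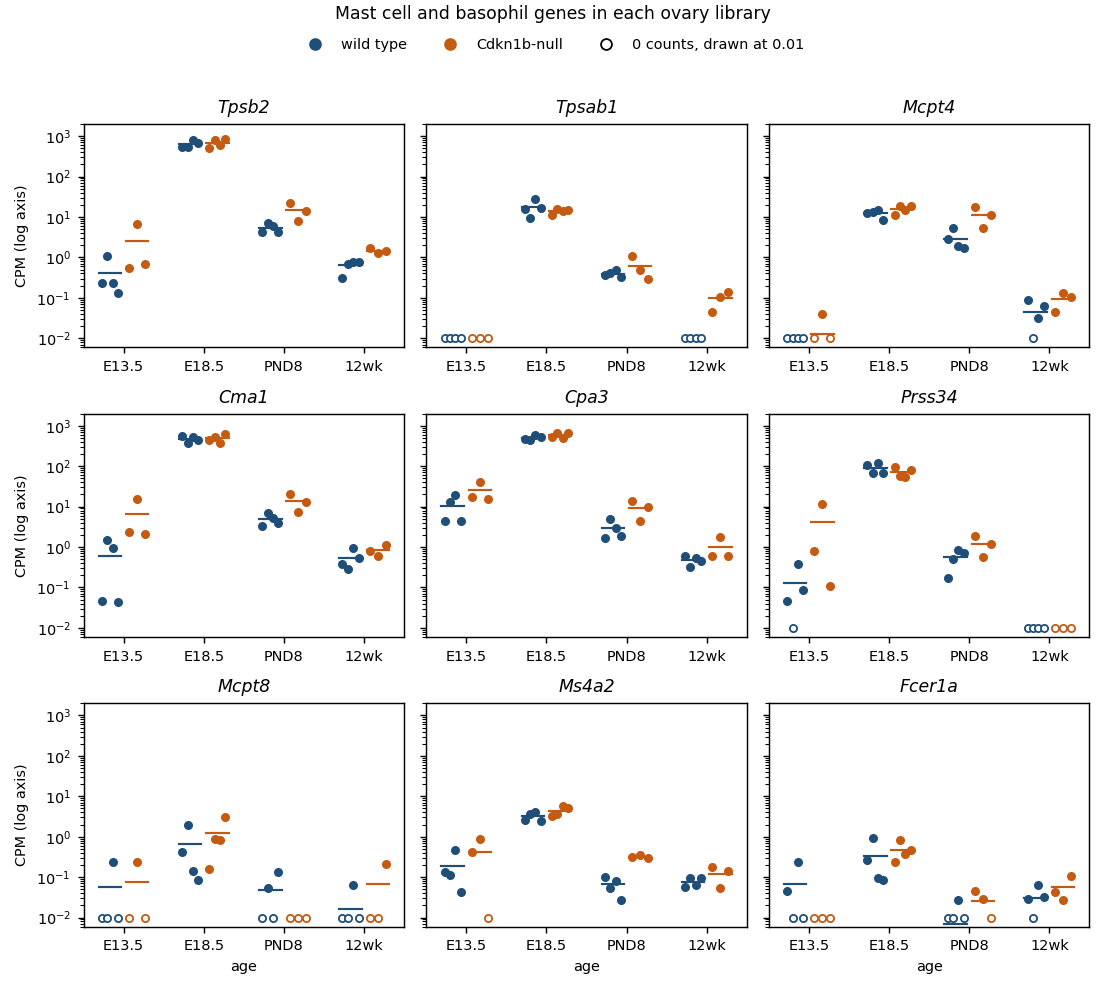
CPM of each of the 9 genes in each of the 29 libraries (log axis) by age, with wild type in blue, Cdkn1b-null in orange, horizontal lines for group means and open points for libraries with 0 counts. Every gene is highest at E18.5, where Tpsb2, Cma1 and Cpa3 lie between 382 and 841 CPM, and Mcpt4 is the gene that stays closest to its E18.5 level at PND8.

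Tpsb2 (ENSMUSG00000033825) encodes the main tryptase of connective tissue mast cells. In wild type it stood at 0.228, 1.06, 0.231 and 0.132 CPM at E13.5 and at 549, 545, 817 and 664 CPM at E18.5, a mean 1550-fold higher. It then fell to 4.25, 7.12, 5.85 and 4.18 CPM at PND8, 120-fold lower than at E18.5. No library of one age overlapped the next in either step. Tpsab1 (ENSMUSG00000024173), the neighbouring tryptase gene, had 0 counts in all 7 E13.5 libraries, which allows at most 3 counts or 0.117 to 0.231 CPM in each. It was 16.1, 9.16, 28.6 and 16.6 CPM in wild type at E18.5, at least 105-fold higher than the E13.5 floor (a mean of 0.167 CPM over the 4 libraries), and 0.374, 0.406, 0.485 and 0.322 CPM at PND8. Per kilobase of exon, Tpsb2 stood at a mean of 404 CPM per kb and Tpsab1 at 8.41 CPM per kb in wild type at E18.5. The coding sequences of both genes are 68.0% identical in GENCODE M21, so counts shared between them by the authors' estimation are a possible source of error in the smaller value.

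Cma1 (ENSMUSG00000022225) encodes mast cell protease 5, the alpha-chymase of the mouse. It was 0.0456, 1.46, 0.925 and 0.0441 CPM in wild type at E13.5, and 555, 385, 536 and 441 CPM at E18.5, a mean 776-fold higher. At PND8 it was 3.33, 6.77, 5.29 and 3.96 CPM, 99.1-fold below E18.5. The E13.5 and E18.5 libraries were fully separated, and so were E18.5 and PND8. Cpa3 (ENSMUSG00000001865), the carboxypeptidase, was the most abundant member at E13.5, at 4.33, 12.8, 19.2 and 4.41 CPM in wild type. It was 460, 448, 576 and 533 CPM at E18.5, 49.5-fold higher, and 1.67, 4.98, 2.99 and 1.90 CPM at PND8, 175-fold lower than at E18.5. Cpa3 therefore had the smallest rise among the 3 most abundant members and, at 175-fold, a larger fall than the other proteases in wild type.

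Mcpt4 (ENSMUSG00000061068) encodes the beta-chymase of connective tissue mast cells, the mouse gene closest in function to human chymase. It had 0 counts in all 4 wild-type libraries of E13.5 and was 12.6, 13.2, 14.8 and 8.18 CPM at E18.5. At PND8 it was 2.85, 5.20, 1.94 and 1.66 CPM, only 4.18-fold below E18.5. In Cdkn1b-null ovaries it was 11.1, 18.6, 14.9 and 19.1 CPM at E18.5 and 17.4, 5.19 and 11.3 CPM at PND8, a mean 1.41-fold lower with overlapping groups. By contrast, Tpsb2, Cma1, Cpa3 and Prss34 were 35.7-fold to 62.2-fold lower at PND8 than at E18.5 in the same Cdkn1b-null groups.

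Prss34 (ENSMUSG00000056399) encodes mast cell protease 11, a tryptase found in mast cells and basophils. In wild type it was 0.0456, 0, 0.385 and 0.0882 CPM at E13.5 and 110, 69.5, 118 and 66.9 CPM at E18.5. It was 0.170, 0.514, 0.836 and 0.697 CPM at PND8, 164-fold lower than at E18.5. At 12wk it had 0 counts in all 7 libraries. Prss34 was thus a strong gene of E18.5 and the only member with no count at 12wk in either genotype.

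Both receptor chains among the members were weaker at E18.5 than every member protease other than Mcpt8, which averaged 0.660 CPM in wild type. Ms4a2 (ENSMUSG00000024680), the beta chain that amplifies the signal, was 2.58, 3.58, 4.10 and 2.42 CPM in wild type at E18.5 and 0.0268 to 0.102 CPM at PND8. Fcer1a (ENSMUSG00000005339), the alpha chain that binds immunoglobulin E, was 0.258, 0.921, 0.0965 and 0.0836 CPM in wild type and 0.240, 0.837, 0.379 and 0.472 CPM in Cdkn1b-null ovaries at E18.5. Per kilobase of exon, the wild-type means at E18.5 were 1.13 CPM per kb for Ms4a2, 0.341 for Fcer1a and 333 for Cpa3. Fcer1a reached the 3-count floor in 6 of the 8 E18.5 libraries, and in 1 library each at E13.5 (wild type) and 12wk (Cdkn1b-null).

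Mcpt8 (ENSMUSG00000022157), the basophil protease, was the least even member at E18.5. It was 0.413, 2.00, 0.145 and 0.0836 CPM in wild type and 0.160, 0.889, 0.852 and 3.11 CPM in Cdkn1b-null ovaries, while Tpsb2 varied from 511 to 841 CPM over the same libraries. Neutrophil genes were uneven at E18.5 as well. The neutrophil list (S100a8, S100a9, Elane, Mpo and 6 others, of which Ly6g stayed under the floor in all 8) summed to 8.99, 91.5, 27.3 and 23.3 CPM in wild type. It summed to 145, 8.76, 429 and 386 CPM in Cdkn1b-null ovaries. Mcpt8 was highest in a library with a high neutrophil sum (Cdkn1b-null replicate 4), but it was 0.889 CPM in the library with the lowest sum (Cdkn1b-null replicate 2). Eosinophil genes summed to 55.3 CPM in wild-type replicate 2, which had the second highest Mcpt8, and to 3.35 to 4.5 CPM in the other 7. The part of either cell type in the Mcpt8 values was not tested.

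The makeup of the 9 genes' counts changed with age. Cpa3 supplied 88.7% ± 4.33 (SD, n = 4) of them in wild type at E13.5 and 28.9% ± 1.94 at E18.5. Tpsb2 went from 3.87% ± 2.5 to 36.6% ± 3.08 and Cma1 from 3.89% ± 4.01 to 27.4% ± 3.41 in the same groups. The E13.5 shares rest on 106 to 281 counts a library. Mcpt4 made up 0.702% ± 0.174 of the counts at E18.5 and 16.8% ± 5.62 at PND8 in wild type, and 0.848% ± 0.113 (n = 4) and 21.6% ± 1.71 (n = 3) in Cdkn1b-null ovaries. At 12wk its share was 2.60% ± 2.56 in wild type and 2.45% ± 1.07 in Cdkn1b-null ovaries.

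**Figure D2:**
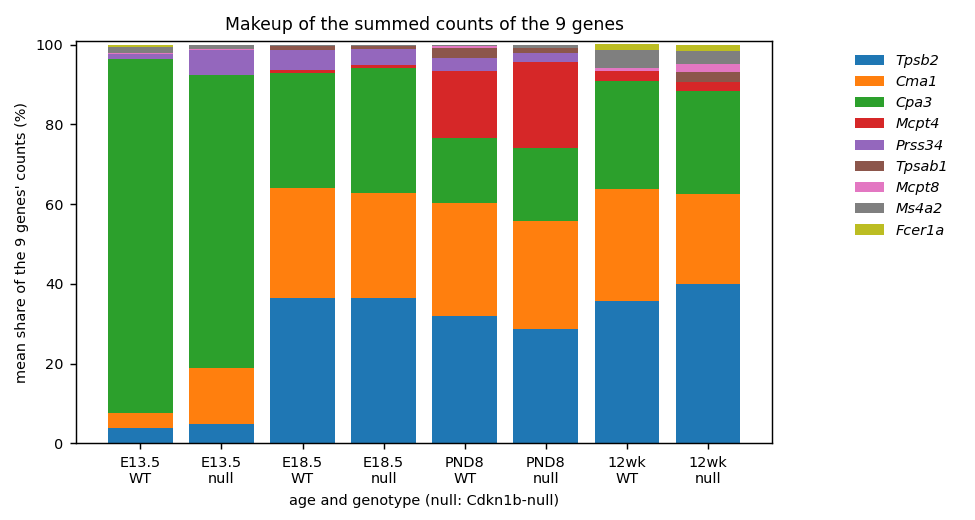
Mean share of the 9 genes' summed counts taken by each gene (stacked bars, percent) in each age and genotype group. Cpa3 fills most of the E13.5 bars (88.7% in wild type), and the Mcpt4 segment widens from under 1% at E18.5 to 16.8% and 21.6% at PND8.

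Ratios within a library do not depend on its scaling, and they show the same shift. The Mcpt4 to Tpsb2 ratio was 0.0123 to 0.0249 over the 8 E18.5 libraries and 0.331 to 0.817 over the 7 PND8 libraries. The Cma1 to Tpsb2 ratio, in contrast, was 0.640 to 1.01 at E18.5 and 0.784 to 0.959 at PND8. Cpa3 to Tpsb2 was 0.705 to 1.01 at E18.5 and 0.392 to 0.700 at PND8. The Mcpt4 ratio thus moved far outside its E18.5 range at PND8, while the Cma1 ratio did not. At 12wk the Mcpt4 ratio was 0 to 0.273 in wild type and 0.0256 to 0.104 in Cdkn1b-null ovaries, on denominators of 11 to 48 Tpsb2 counts.

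Most of the members sit in 2 gene clusters (positions from GENCODE M21 on GRCm38). The chymase cluster of chromosome 14 holds Cma1 (14, 55941451 to 55944675), Mcpt4 (56059629 to 56062313) and Mcpt8 (56082166 to 56085273), all on the minus strand. Between Cma1 and Mcpt4 lie Cma2, Mcpt1, Mcpt9 and Mcpt2, of which the first 3 had wild-type means at E18.5 of 0.127, 0.191 and 0.00603 CPM per kb. Mcpt2 was at 1.59, against 440 for Cma1 and 11.0 for Mcpt4. The mucosal genes Mcpt1 and Mcpt2 were therefore low beside the connective tissue genes of the same cluster. Of the granzyme genes beyond Mcpt8, Gzme, Gzmd, Gzmg and Gzmn had 0 counts in every E18.5 library. Because the coding sequences of Mcpt4 and Mcpt1 are 86.7% identical and those of Cma2 and Mcpt9 98.1%, counts among these relatives are uncertain.

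The tryptase cluster of chromosome 17 holds Prss34 (17, 25298394 to 25300165, plus strand), Tpsab1 (25343245 to 25345562, minus strand) and Tpsb2 (25366305 to 25369098, plus strand). Wild-type means at E18.5 were 74.7 CPM per kb for Prss34, 8.41 for Tpsab1 and 404 for Tpsb2. Prss28 and Prss29, which lie between Prss34 and Tpsab1 and encode the uterine tryptases, stood at 0.0733 and 0. Tpsg1, whose start is 3.0 kb from that of Tpsb2, was at 1.21 CPM per kb. High and near-zero genes thus alternated within each cluster. The other members are on chromosome 3 (Cpa3, 20215620 to 20242181), chromosome 19 (Ms4a2, 11615523 to 11623719) and chromosome 1 (Fcer1a, 173221284 to 173227214), all on the minus strand.

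**Figure D3:**
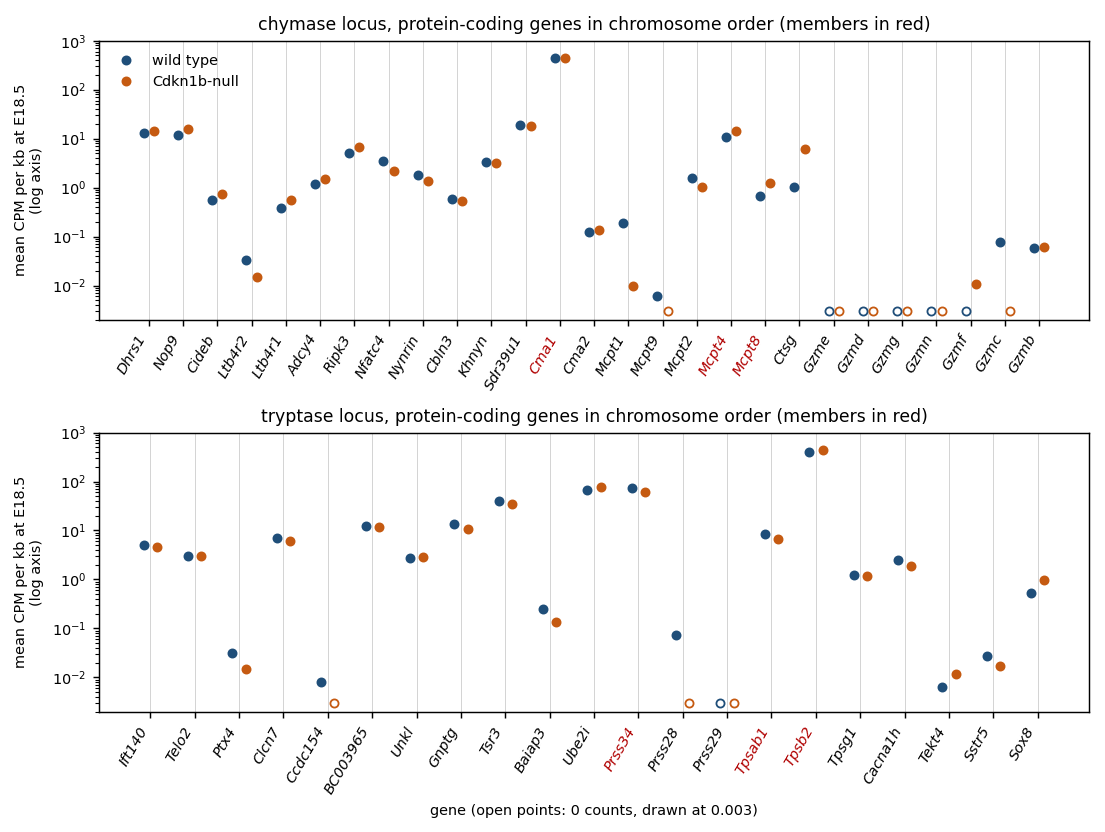
Mean CPM per kb of exon at E18.5 (log axis) for the protein-coding genes of the chymase and tryptase clusters in chromosome order, with wild type in blue, Cdkn1b-null in orange open points for genes with 0 counts and the names of the 6 described members in red. In wild type, Cma1 (440) and Tpsb2 (404) stand far above their neighbours Cma2 (0.127), Mcpt1 (0.191) and Prss28 (0.0733).

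At E18.5, when the 9 genes were highest, none was called different between genotypes. Of the 8 genes that passed the filter on low counts (all but Fcer1a), edgeR called 0 at an adjusted p under 0.05, against 4.99% of all genes tested in either direction. At an unadjusted p under 0.05 it found 0, against 22.1% of all genes, and DESeq2 found 0 at either level, against 10.3% of all genes at the adjusted one. The log2 fold changes, Cdkn1b-null over wild type, were 0.08 ± 0.182 (SE) for Tpsb2, 0.03 ± 0.160 for Cma1 and 0.20 ± 0.133 for Cpa3. They were 0.37 ± 0.224 for Mcpt4, 0.47 ± 0.277 for Ms4a2, -0.34 ± 0.288 for Tpsab1 and -0.33 ± 0.251 for Prss34. The median over these 7 genes was 0.08, beside -0.04 over all genes, and adjusted p over the 8 ran from 0.348 to 0.943. Mcpt8, which passed the filter only with its Cdkn1b-null libraries, had the widest error, at 0.93 ± 1.01.

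**Figure D4:**
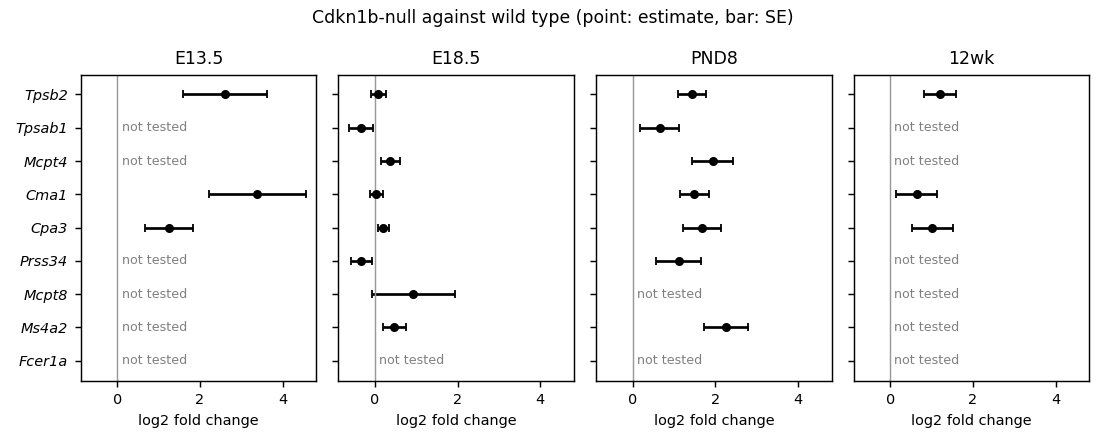
Log2 fold change of each gene, Cdkn1b-null over wild type, at each age (points, edgeR estimate; bars, SE), with genes that did not pass the filter on low counts marked as not tested. The E18.5 points of the 6 proteases other than Mcpt8 lie between -0.34 and 0.37, the 7 PND8 points lie between 0.65 and 2.25, and no point was called at an adjusted p under 0.05.

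At PND8 edgeR called none of the 7 tested genes, although their means were higher in Cdkn1b-null ovaries. Tpsb2 was 4.25, 7.12, 5.85 and 4.18 CPM in wild type and 21.9, 7.80 and 13.8 CPM in Cdkn1b-null ovaries (log2 fold change 1.43 ± 0.333, adjusted p = 0.124). The groups did not overlap, although Cdkn1b-null replicate 3 lay close to the highest wild-type library. Cma1 was 3.33, 6.77, 5.29 and 3.96 CPM against 20.5, 7.48 and 13.3 CPM (1.49 ± 0.348, adjusted p = 0.124), again without overlap. Mcpt4 gave 1.94 ± 0.495 (adjusted p = 0.151) and Cpa3 1.68 ± 0.465 (adjusted p = 0.170), with groups that overlapped through Cdkn1b-null replicate 3.

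Ms4a2 was 0.102, 0.0541, 0.0809 and 0.0268 CPM against 0.324, 0.352 and 0.289 CPM (2.25 ± 0.531, adjusted p = 0.120). It passed the filter only through the Cdkn1b-null libraries, so it had to differ to be tested. The other 6 genes would have passed on the wild-type libraries alone. Of these 6, groups were separate and higher in Cdkn1b-null ovaries for 2 (Tpsb2 and Cma1), against 7.90% of all genes. An unadjusted p under 0.05 was reached by 4 of the 6, all higher, against 6.96% of all genes in that direction and 15.0% in either, and edgeR's adjusted calls were 0 against 0.349% in either direction. Their median log2 fold change was 1.46, and over all genes it was 0 to 2 decimals. Tpsb2, Cma1, Mcpt4 and Cpa3 varied together, each highest in replicate 1 and lowest in replicate 3 of the Cdkn1b-null libraries. The Cma1 to Tpsb2 ratio in those libraries was 0.937 to 0.959. Counts of members here are therefore not counts of independent results. DESeq2 called 4 of the 6 (Tpsb2, adjusted p = 0.00128, Cma1, 0.00111, Mcpt4, 0.00141, and Cpa3, 0.00601), against 1.99% of all genes called higher and 4.57% in either direction, and gave no adjusted p for the other 2 or for Ms4a2. Over the 12 alternatives the adjusted p of Tpsb2 ran from 0.00128 to 0.612, that of Cma1 from 0.00111 to 0.690, that of Mcpt4 from 0.00141 to 0.336 and that of Cpa3 from 0.00601 to 0.456, with only DESeq2 under 0.05 for each.

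Cdkn1b-null replicate 1 had the highest value of 6 of these 7 genes at PND8. Without it the log2 fold changes were 1.00 for Tpsb2, 1.09 for Cma1, 1.49 for Mcpt4, 1.27 for Cpa3, 0.63 for Prss34, -0.02 for Tpsab1 and 2.24 for Ms4a2. The same library had the highest sum of red cell genes (1850 CPM, against 162 and 247 CPM in the other Cdkn1b-null libraries and 7.85 to 194 CPM in wild type). It was also highest for the neutrophil list (11.5 CPM, against 3.38 and 6.75 CPM and 0.938 to 2.24 CPM). Elane and Mpo stayed under the floor in all 3 Cdkn1b-null libraries. The part of these cells in the PND8 values was not tested.

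At E13.5 only Tpsb2, Cma1 and Cpa3 passed the filter, and none was called (0 against 0.00606% of all genes in either direction). Cma1 was 0.0456, 1.46, 0.925 and 0.0441 CPM in wild type and 2.33, 15.2 and 2.07 CPM in Cdkn1b-null ovaries, with no overlap (log2 fold change 3.39 ± 1.17, adjusted p = 0.988). Tpsb2 was 0.552, 6.54 and 0.691 CPM in Cdkn1b-null ovaries (2.60 ± 1.02, adjusted p = 0.988) and overlapped wild type. Cpa3 was 17.7, 41.7 and 15.7 CPM (1.25 ± 0.590, adjusted p = 0.988), also with overlap. At an unadjusted p under 0.05 stood Tpsb2 and Cma1, which reached the filter's cutoff in 1 and 2 wild-type libraries and in all 3 Cdkn1b-null ones. Both were thus tested only because of the group in which they are high, and nothing is read from their count beside all genes (1.01% with such a p and a higher mean, 3.49% in either direction, 1.77% separate and higher). Cpa3, the gene that would have passed on wild type alone, did not reach it. DESeq2 gave no p-value, adjusted or not, for Tpsb2 and Cma1. Cpa3, the 1 gene with a DESeq2 p-value, was not called (unadjusted p = 0.0279, adjusted p = 0.936), against 0.394% of all genes called. The values leaned on Cdkn1b-null replicate 3, without which they were 0.57, 1.83 and 0.69. That library also held 11.4 CPM of Prss34, against 0.797 and 0.106 CPM in its group. It had the highest red cell, germ cell and skin epithelium sums of its group (9950, 594 and 44.8 CPM). Its pan-leukocyte, macrophage and eosinophil sums were the lowest (33.5, 76.0 and 60.5 CPM). Eosinophil genes summed to 60.5 to 161 CPM in Cdkn1b-null ovaries and 19.0 to 64.7 CPM in wild type. Neutrophil genes summed to 33.9 to 393 CPM and 19.5 to 54.1 CPM. The part of these cells was not tested. A fit of all 8 groups together called Cma1 (3.61, adjusted p = 0.0236). That fit also called more genes at E13.5 over the whole table than the main one, and nothing is read from this call. Over its alternatives the adjusted p of Cma1 ran from 0.0236 to 1.0.

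At 12wk the same 3 genes passed the filter and edgeR called 0 of them, against 0.0115% of all genes. Tpsb2 was 0.316, 0.706, 0.760 and 0.787 CPM in wild type and 1.69, 1.28 and 1.46 CPM in Cdkn1b-null ovaries, without overlap (log2 fold change 1.2 ± 0.395, unadjusted p = 0.0166, adjusted p = 0.44). Groups were separate and higher for 4.67% of all genes, and an unadjusted p under 0.05 in that direction was reached by 4.96%, against 1 of the 3 members. DESeq2 also called 0, against 1.87% of all genes, with 1 at an unadjusted p under 0.05. Cpa3 gave 1.02 ± 0.492 and Cma1 0.64 ± 0.501, with overlapping groups. Tpsab1 had 0 counts in the 4 wild-type libraries and 0.0434, 0.107 and 0.139 CPM in Cdkn1b-null ovaries, which is 1 to 4 counts and was too low to test.

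Whether the genotype effect differed among ages was tested over all 29 libraries, where all 9 genes passed the filter. Mcpt8 and Fcer1a passed through E18.5, the age at which the members were picked. They averaged 0.340 to 1.25 CPM there and at most 0.0779 CPM in any other group. Tpsab1 had 0 counts in every E13.5 library and every wild-type 12wk library, and Prss34 in every 12wk library. Nothing is therefore read from the counts of members set beside all genes here. EdgeR called 0 of them, against 0.806% of all genes. At an unadjusted p under 0.05 stood 4 of the 9 (Cma1, Tpsab1, Prss34 and Tpsb2, adjusted p = 0.140, 0.141, 0.186 and 0.280), against 12.7% of all genes. DESeq2 called 1, Tpsab1 (adjusted p = 0.0464), against 3.47% of all genes. Over the 33 alternatives the adjusted p of Tpsab1 ran from 0.0464 to 0.273 and that of Prss34 from 0.0432 to 0.483. The value of 0.0432 came from leaving out E13.5 Cdkn1b-null replicate 4.

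From PND8 to 12wk Tpsb2, Cma1, Cpa3 and Mcpt4 fell in both genotypes. In wild type Tpsb2 fell 8.33-fold (log2 fold change -2.98 ± 0.336, adjusted p = 0.000455) and Cma1 fell 9.01-fold (-3.09 ± 0.408, adjusted p = 0.000901). Cpa3 fell 6.07-fold (-2.51 ± 0.413, adjusted p = 0.00244). Tpsb2 and Cpa3 would have passed the filter on the 12wk libraries alone, and Cma1 reached its cutoff in 3 of those 4. Mcpt4 was 1.66 to 5.20 CPM at PND8 and 0 to 0.0861 CPM at 12wk, 64.5-fold lower (adjusted p = 0.000477), and Tpsab1, at 0 counts in all 4 libraries of 12wk, was at least 4.27-fold lower (adjusted p = 0.00181). These 2 passed the filter through PND8 alone and had to differ to be tested. Both genes that needed no PND8 library to be tested were called lower without overlap, where 14.3% of all genes were called lower and 20.3% were separate and lower.

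In Cdkn1b-null ovaries the falls were 9.83-fold for Tpsb2 (-3.21 ± 0.403, adjusted p = 0.00239), 16.5-fold for Cma1 (-3.95 ± 0.459, adjusted p = 0.00194) and 9.58-fold for Cpa3 (-3.16 ± 0.587, adjusted p = 0.00891). Mcpt4 was 121-fold lower (adjusted p = 0.00118) and Prss34, with 0 counts in the 3 libraries of 12wk, at least 11.6-fold lower (adjusted p = 0.00747). Mcpt4 and Prss34 passed the filter through PND8 alone and had to differ to be tested. The 3 others would have passed on the 12wk libraries alone, and all 3 were called lower without overlap, against 14.3% of all genes called lower and 28.9% separate and lower. Each of these calls in either genotype held under every alternative that was run, with adjusted p at most 0.0394. Ms4a2 and Fcer1a were near the floor at both ages and were not tested in this step.

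Other genes of mast cells and basophils, 74 in 6 lists (receptors, proteases, granule and mediator synthesis, transcription factors, signalling and cytokines), were tested in the same fits. From PND8 to 12wk in wild type, 55 passed the filter, 30 were called higher and 1 lower, against 16.1% and 14.3% of all genes. Their median log2 fold change was 1.07, beside -0.01 over all genes. In Cdkn1b-null ovaries 58 passed, 33 were called higher and 4 lower, against 14.8% and 14.3% of all genes, with a median of 0.95 beside -0.01. Of the 44 and 48 that would have passed on their lower group alone, 24 were called higher and 0 lower in wild type, and 27 higher and 3 lower in Cdkn1b-null ovaries. The lists include genes that other cells also express, such as Kit, so these calls are not a measure of mast cells. In every wild-type library of 12wk, 12 of the 74 were under the floor, among them Mrgprb1, Mrgprb2, Cd200r3, Hrh4, Mcpt1 and Mcpt2. Il1rl1 averaged 1.11 CPM at PND8 and 1.24 CPM at 12wk in wild type. Pan-leukocyte genes (Ptprc, Cd53, Coro1a and Laptm5) summed to 8.14 to 14.8 CPM at PND8 and 90.6 to 119 CPM at 12wk in wild type, and to 10.7 to 18.5 and 54.5 to 142 CPM in Cdkn1b-null ovaries, and their part in this was not tested.

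Among the receptors, 8 of 12 tested genes rose in wild type, against 16.1% of all genes. Fcer1g, the gamma chain, rose from 1.62 ± 0.717 CPM to 11.3 ± 3.32 CPM (SD, n = 4 each, adjusted p = 0.000888), and Itgb7, an integrin chain of mast cell progenitors and lymphocytes, rose by 3.53 on the log2 scale (adjusted p = 7.26e-05). Kit, the receptor for stem cell factor that oocytes and theca cells also express, was 39.3 ± 20.7 and 36.4 ± 9.50 CPM and was not called in wild type, while it rose by 0.82 on the log2 scale in Cdkn1b-null ovaries (adjusted p = 0.0204). Itga2, a collagen-binding integrin chain, rose by 2.35 (adjusted p = 0.00154), Cd9, a tetraspanin, by 1.03 (adjusted p = 0.00259) and Csf2rb2, the interleukin-3 receptor beta chain, by 2.40 (adjusted p = 0.00263) in Cdkn1b-null ovaries. The 1 receptor that fell in Cdkn1b-null ovaries was Cd200r3, an activating receptor of mast cells and basophils (-5.14 ± 0.899, adjusted p = 0.00684), from 0.551 ± 0.178 to 0.0116 ± 0.0200 CPM. It passed the filter through PND8 alone, so it had to fall to be tested, and it did not pass in wild type.

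In the list of granule and mediator synthesis, Hdc, the enzyme that makes histamine, rose by 1.62 in wild type (adjusted p = 0.000308) and by 1.66 in Cdkn1b-null ovaries (adjusted p = 0.0014). Srgn, the serglycin core on which granule proteases are packed, rose by 2.30 (adjusted p = 0.00155) and 2.06 (adjusted p = 0.0228). Slc18a2, the vesicular monoamine transporter, was 447 ± 87.8 CPM in wild type at PND8 and fell by 1.44 on the log2 scale only in the Cdkn1b-null test (adjusted p = 0.00548, wild type 0.278, difference not tested). Rab27b, a granule trafficking GTPase, fell by 1.41 in Cdkn1b-null ovaries (adjusted p = 0.0012). These genes are not restricted to mast cells, and at PND8 Slc18a2 stood above every member.

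Of the transcription factors, 6 of 10 rose in each genotype and none fell, against 16.1% (wild type) and 14.8% (Cdkn1b-null) of all genes called higher. Mitf, needed for mast cell development, rose by 1.68 in wild type (adjusted p = 0.00127) and 1.19 in Cdkn1b-null ovaries (adjusted p = 0.00326). Ikzf1, a lymphoid and myeloid factor, rose by 2.92, and Bhlhe40 by 1.51 in wild type (adjusted p = 0.000173 and 0.000235), and Cebpa, a myeloid factor, rose by 2.60 in Cdkn1b-null ovaries (adjusted p = 0.00262). Gata2, the GATA factor of mast cells and basophils, was not called in either genotype (adjusted p = 0.117 and 0.103). Its mean was 66.3 CPM in wild type at E13.5, 21.3 CPM at E18.5 and 6.72 CPM at PND8, so it was not highest when the members were. Among signalling genes, 7 of 12 rose in wild type, against 16.1% of all genes. They were led by Lcp2 (2.26, adjusted p = 9.45e-05) and Lat2 (2.83, adjusted p = 0.000159), adaptors of the immunoglobulin E receptor, of which Lat2 passed the filter through 12wk alone. In Cdkn1b-null ovaries 6 of 12 signalling genes rose and 1 fell, against 14.8% and 14.3% of all genes. Among the 6 was Rgs13, a regulator of mast cell signalling (3.96, adjusted p = 0.00197, tested through its 12wk libraries alone).

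The protease list without the members was low at PND8 and 12wk, where it summed to 0.155 to 3.4 CPM. At E18.5 it summed to 4.69 to 5.28 CPM in wild type and to 3.78, 3.12, 17.0 and 13.8 CPM in Cdkn1b-null ovaries. Of its 9 genes, 2 passed the filter from PND8 to 12wk in wild type, and Gzmb, granzyme B, was called, from 0.0134 ± 0.0268 to 1.91 ± 0.808 CPM (adjusted p = 0.000455, tested through its 12wk libraries alone). Mcpt1 was 0 to 0.627 CPM in wild type at E18.5 and Mcpt2 was 1.05 to 2.41 CPM. Of the 10 cytokine genes, 4 passed the filter in wild type and 1 rose, against 16.1% of all genes. In Cdkn1b-null ovaries 6 passed and 3 rose, against 14.8%. The gene that rose in wild type, and some of those in Cdkn1b-null ovaries, passed the filter through 12wk alone.

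**Figure D5:**
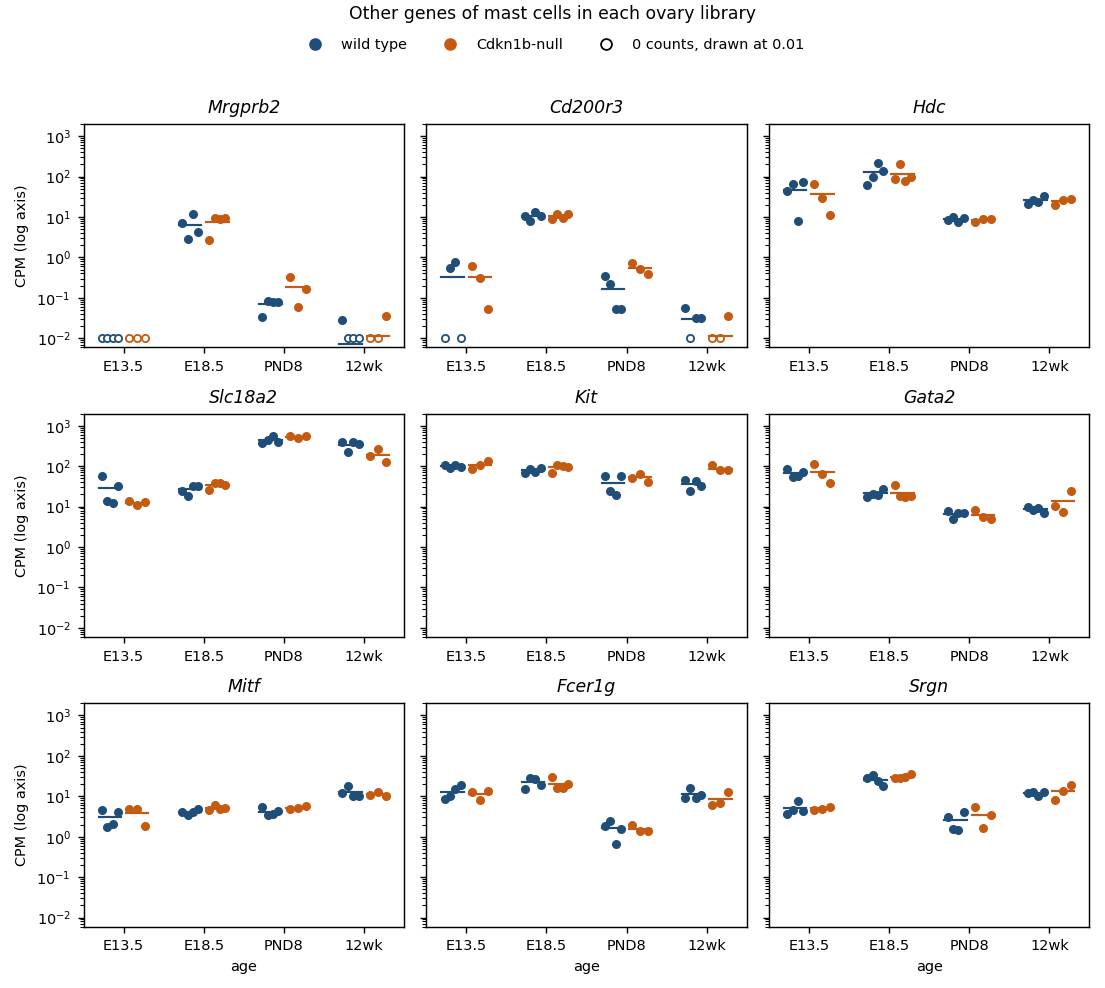
CPM of 9 other genes of mast cells in each of the 29 libraries (log axis) by age, drawn as for the members. Mrgprb2 and Cd200r3 peak at E18.5 as the members do, Hdc, Srgn and Fcer1g are also highest there but stay well above the floor at every age, and Slc18a2, Kit, Gata2 and Mitf have their highest means at other ages.

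Between genotypes, the 74 genes gave 1 call. At E18.5 Maob, a monoamine oxidase, was 18.9 ± 2.59 CPM in wild type and 28.1 ± 3.26 CPM in Cdkn1b-null ovaries (SD, n = 4 each, log2 fold change 0.56 ± 0.140, adjusted p = 0.0443), the only call among 58 tested, against 4.99% of all genes, where DESeq2 called 2, against 10.3%. At E13.5, PND8 and 12wk edgeR called 0 of 51, 54 and 59 tested, against 0.00606%, 0.349% and 0.0115% of all genes. At an unadjusted p under 0.05 stood 2, 7 and 11, against 3.49%, 15.0% and 9.63% of all genes. DESeq2 called 0, 4 and 8, against 0.394%, 4.57% and 1.87%. Cd200r3 at PND8 was 0.0536 to 0.340 CPM in wild type and 0.386 to 0.739 CPM in Cdkn1b-null ovaries (1.74 ± 0.638, adjusted p = 0.25). Kit at 12wk was 24.8 to 44.7 CPM against 78.9 to 104 CPM (1.26 ± 0.217, adjusted p = 0.213). In the interaction test edgeR called 0 of 65, against 0.806% of all genes, with 9 at an unadjusted p under 0.05 (12.7% of all genes), and DESeq2 called 4 (3.47%).

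Genes whose pattern was most like the members were ranked by Pearson's r between log2(CPM + 0.5) and the mean of the 9 genes over the 29 libraries, among 14919 genes. The r values describe a pattern set mostly by the E18.5 libraries and carry no test. The highest was Cd200r3 (r = 0.973), at 10.5 CPM in wild type and 10.6 CPM in Cdkn1b-null ovaries at E18.5 and 0.0116 to 0.551 CPM in the other group means. Mrgprb2 (0.954), the receptor through which mast cells answer basic peptides, had 0 counts in all 7 E13.5 libraries and averaged 6.43 and 7.65 CPM at E18.5. Tph1 (0.954), the serotonin-making enzyme, averaged 8.93 and 10.3 CPM there, and Il1rl1 (0.948), the interleukin-33 receptor, 14.4 and 15.5 CPM. Both are also on the lists of mast cell genes.

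The other 6 of the 10 were Ccnb3 (0.960), a cyclin of meiosis, Nxph1, Prss48, Pet2, Gstm2 and Esx1 (0.944 to 0.952). Ccnb3 averaged 43.0 and 42.5 CPM at E18.5, and Gstm2, a glutathione transferase, was 2000 and 2700 CPM there but 390 to 760 CPM in the other groups. Over the 8 E18.5 libraries alone, among 14867 genes, the first 10 were Cyb5r3 (0.950), Irgm2, Rnf185, Taf6l, Angpt2, Speer4e, Rnase6, Syngr3, Ube2v1 and Diras2 (0.896). None of these is a gene of the mast cell lists, and Mrgprb2 (0.648) and Cd200r3 (0.512) ranked 381 and 1173. The mean weights each member equally on the log scale. Mcpt8, at 0.0836 to 3.11 CPM, therefore moved it more at E18.5 than Tpsb2, at 511 to 841 CPM. These ranks do not show whether genes vary with the abundant members.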

How the data were processed

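Per the file headers, the authors' 29 libraries were deposited as 1 table of expected counts per Ensembl gene, estimated by RSEM. The submitters' processing notes name Trim Galore, FastQC 0.11.5, STAR 2.5.2 and RSEM 1.3.0, and the genome build, annotation release and strandedness are not given in the sources used here. Of values above 0, 31.4% were not whole, and RSEM shares reads among similar genes. Symbols matched 51633 of 51912 IDs. Groups and replicate numbers come from the sample titles. Counts were rounded and tested with edgeR 4.0.16 (R 4.3.3; TMM, filterByExpr with a minimum count of 10 and total of 15, robust quasi-likelihood F test), with Benjamini-Hochberg adjustment over all genes tested and a threshold of 0.05 (a gene under it is "called"). Each comparison was fitted on its own groups, and the interaction on all 8. SE is the log2 fold change over the square root of F. Printed CPM use TMM over all 29 libraries. The floor is 3 counts, 0.0693 to 0.231 CPM a library, and covers counting error only, as no molecular identifiers are named in the labels. Where a group had no count, the fold was computed from the mean of its libraries' floors and is a lower bound. The scripts were tested on simulated data.

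The members, gene lists and tests were chosen with earlier results of these data known. Members share the same libraries and can vary together, so a count of members in any comparison is not a count of independent results. Named genes are the 9 members, Cdkn1b, 11 fixed mast cell genes, up to 6 further called list genes per comparison by smallest p, and the 10 genes most like the members. Il1rl1 and Tph1 enter by likeness, and Cma2, Mcpt9 and the other cluster neighbours by position. Alternatives were RLE scaling, no filter, DESeq2 1.42.0, the replicate block, all 8 groups in 1 fit, leaving out each replicate, total-count scaling and a pseudocount of 0.1 for likeness.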

Additional observations from a re-analysis of the deposited data

Results flagged for a closer look

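Of 38 groups of values tested, 2 held a library far from the others by Dixon's ratio. This count is not compared with chance, because the members share libraries and low counts are often tied. The Cdkn1b-null groups with 3 libraries were not tested, so this count says nothing about them. Tpsb2 in E13.5 wild type was 1.06 CPM in replicate 2, against 0.132 to 0.231 CPM in the other 3. Mcpt8 in E13.5 wild type was 0.231 CPM (3 counts) in replicate 3, the library rich in red cell genes, against 0 counts in the other 3. With 3 libraries tied at 0, the ratio flags the remaining library whatever its value, so nothing is read from this flag. Among the groups not tested, Cma1 in E13.5 Cdkn1b-null ovaries was 15.2 CPM in replicate 3, against 2.33 and 2.07 CPM in the others.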

How the results depend on the processing

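The number of members called was the same under RLE scaling and the replicate block, and without the filter on low counts it was 6 in place of 5 in each step from PND8 to 12wk, as in the fit of all 8 groups. DESeq2 called 4 members at PND8 and 1 in the interaction, and the fit of all 8 groups called 1 at E13.5, where edgeR on the groups compared called 0. Leaving out each replicate gave 0 members at each age, 5 to 6 in each step and 0 to 1 in the interaction. Genes called over the whole table were fewer or more: with DESeq2, 65 (E13.5), 1681 (E18.5), 813 (PND8), 326 (12wk) and 706 (interaction), against 1, 814, 62, 2 and 164. Fitting all 8 groups called 59 at E13.5, 0 at PND8 and 68 at 12wk, and no filter called 258 at PND8 and 12 at 12wk. Leaving out a replicate gave 0 to 1 genes at E13.5, 246 to 1372 at E18.5, 0 to 147 at PND8, 0 to 3 at 12wk, 2642 to 5129 from PND8 to 12wk in Cdkn1b-null ovaries and 72 to 235 in the interaction. The cause was not tested.

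At E18.5 the sign turned for Tpsb2 (-0.03), Cma1 (-0.1) and Mcpt8 (-0.07) without Cdkn1b-null replicate 4, and for Cma1 without wild-type replicates 2 (-0.06) and 4 (-0.01). At PND8 it turned for Tpsab1 (-0.02) without Cdkn1b-null replicate 1. None of these was called, and the cause was not tested. Leaving out each library in turn, the values ran from -0.03 to 0.23 for Tpsb2, -0.1 to 0.13 for Cma1 and -0.07 to 2.54 for Mcpt8 at E18.5, and from -0.02 to 0.98 for Tpsab1 at PND8.

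The labels tie no litter, batch or day to the replicate numbers, and in no comparison was every correlation of same-numbered deviations over 0.1 (-0.107 to 0.182 in all, 0.04 to 0.139 at E18.5), so the libraries were not treated as paired. Over 6 comparisons a library correlated best with its own number in 17 of 40 cases, 4 of 6 at PND8. No chance level was computed for these counts, so they do not show that the libraries are unpaired. Blocking on the number called 8 genes at PND8 and 10 at 12wk, against 62 and 2, and 1, 937, 4760, 3711 and 161 in the other comparisons, and no member's call changed. At E13.5 it lowered edgeR's unadjusted p of every tested member (Cma1 from 0.0191 to 0.000227, adjusted p = 0.171). At PND8 it lowered that of Mcpt4 (0.00475 to 0.000453) and raised those of the other tested members (Tpsb2 from 0.00257 to 0.0132). Of the 10 genes most like the members, 8 stayed over the 29 libraries with a pseudocount of 0.1, and 5 over the 8 E18.5 libraries. Below about 0.1 CPM, where Mcpt8 and Fcer1a lie at most ages, a value rests on under 5 counts and differences were not detectable.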
